A study of Mus musculus with 8 samples.

Results

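Solute carriers are a large group of membrane transporters, and their mouse genes carry symbols that start with Slc and a family number. The genes described here are those with such a symbol and a RefSeq messenger RNA accession on the array. They were chosen by measured signal. A gene was kept if the scanner flagged a probe as well above background on both arrays of any 1 group, and the probe of the highest mean signal stands for the gene. Of 369 such Slc genes, 256 were kept, among 14108 genes kept by the same rule over all symbols. The kept genes passed through every group in 225 cases, through 3 groups in 5, through 2 in 13 and through 1 group only in 13. Where a gene passed through one of the groups compared and not through the other, the rule itself used that contrast, so its values are given as a description without a p. The 13 genes just inside the rule had a highest array value of -4.72 to -3.58 (median -4.31). The 22 genes just outside it, which were well above background on at least 1 array but on both of no group, reached -4.88 to -0.84 (median -4.20). The other 91 passed the flag on no array. A level is the log2 of the signal over the 75th percentile of its array, so that 0 is that percentile, and levels of different genes are not set against each other.

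RNA came from granulocyte progenitors (GPs) sorted from mouse bone marrow as primary cells. The groups were Flt3+ and Flt3- GPs of wild-type (WT) mice and Flt3+ and Flt3- GPs of mice labelled Irf8KO, where Irf8 is a transcription factor of the myeloid lineages. Each group had 2 arrays, 1 from each of 2 independent experiments, so there were 8 one-colour arrays in all. The labels name an Irf8 deficiency and give no strain, age, deleted part of the gene or number of animals behind a sample. A p-value here therefore covers the spread between the deposited samples, and that spread may be technical.

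Solute carriers move their cargo down a gradient or couple it to sodium, protons or a counter-substrate, and unlike the ABC transporters and ion pumps they do not split ATP. Families differ in cargo: amino acids, sugars, lactate, metals, nucleosides, inorganic ions or the substrates of mitochondria. In marrow, some carriers are best known from one lineage, such as the anion exchanger Slc4a1 and the urea transporter Slc14a1 of red cells, or the monoamine loader Slc18a2 of mast cells, basophils and platelets.

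The measured quality was even. From 54.9 to 60.1% of the spots of an array lay well above background, no spot was saturated, and the arrays of a group correlated across the 256 Slc genes at r = 0.992 to 0.997. The receptor gene Flt3 was at 6.21 on both WT Flt3+ arrays and at 1.66 to 1.69 on the WT Flt3- arrays. In Irf8KO GPs it was at 6.29 and 6.30 (Flt3+) and at 2.68 and 2.71 (Flt3-). Irf8 RNA was at 5.80 and 5.87 (WT Flt3+), 4.85 and 4.88 (WT Flt3-), 6.67 on both arrays (Irf8KO Flt3+), and 5.53 and 5.64 (Irf8KO Flt3-). Its signal was therefore higher on the arrays labelled Irf8KO in both populations. Where its probe lies relative to the deletion was not stated, so the signal checks nothing about the label. All 10 listed markers of granulocyte progenitors, among them Mpo, Elane and Cebpa, were well above background in every group. Their summed signal, in units of the 75th percentile, was 1063 to 1163 in WT Flt3+ and 2291 to 2434 in WT Flt3- GPs, and 1565 to 1566 and 2678 to 2931 on the Irf8KO arrays. Of the 10, 7 were called lower and 1 higher in WT Flt3+ than in WT Flt3- GPs, beside 39.2% and 22.7% of all genes tested. Between Irf8KO populations 8 were lower and 1 higher, beside 23.7% and 22.1%. Between genotypes, 7 of the Flt3+ differences were called higher and 1 lower on the Irf8KO arrays, beside 16.5% and 12.5% of all genes. Of the Flt3- differences 6 were higher and 1 lower, beside 16.5% and 27.2%. The part of these markers in the differences between carriers below was not tested. All arrays were on 1 slide, with the genotypes in different rows and the populations in different columns, so place and group cannot be told apart.

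By cargo, 40 of the 256 genes belong to families for amino acids, peptides and neurotransmitters, 40 to the mitochondrial family Slc25, 35 to families for inorganic ions, 32 to nucleosides and nucleotide sugars, and 29 to carboxylates and organic ions. A further 27 belong to metal families, 21 to sugars and polyols, 18 to vitamins and lipids, and 9 to urea, phosphate and vesicular carriers. Slc9a3r1, Slc9a3r2, Slc4a1ap and Slc7a6os carry a carrier's symbol but encode partners or neighbours, and Slc49a4 was left in a class of its own.

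To show what lies at the start of the genes on which the results turn, 300 bases of promoter, from 250 before to 50 after the start, are printed for 4 of them as listed by RefSeq for GRCm38.p6. Slc13a3 and Slc38a5 were each well above background on the arrays of 1 genotype only, and Slc35d3 and Slc7a8 had the largest rise and the largest fall between WT populations among genes measured on all arrays and listed in that table. Capitals mark a match to 1 of the 4 motifs searched.
Slc13a3, chr2:165473148-165473447, minus strand: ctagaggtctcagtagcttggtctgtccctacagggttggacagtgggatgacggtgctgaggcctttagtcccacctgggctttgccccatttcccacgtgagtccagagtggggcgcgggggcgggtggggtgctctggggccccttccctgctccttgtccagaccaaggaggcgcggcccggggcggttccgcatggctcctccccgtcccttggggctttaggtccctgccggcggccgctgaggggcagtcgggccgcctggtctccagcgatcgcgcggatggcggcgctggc
Slc38a5, chrX:8271131-8271430, plus strand: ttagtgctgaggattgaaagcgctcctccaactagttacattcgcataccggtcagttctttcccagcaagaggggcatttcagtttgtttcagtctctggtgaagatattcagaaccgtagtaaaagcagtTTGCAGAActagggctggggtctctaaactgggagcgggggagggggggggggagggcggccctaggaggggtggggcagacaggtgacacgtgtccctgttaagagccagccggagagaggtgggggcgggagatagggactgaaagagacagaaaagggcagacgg
Slc35d3, chr10:19851410-19851709, minus strand: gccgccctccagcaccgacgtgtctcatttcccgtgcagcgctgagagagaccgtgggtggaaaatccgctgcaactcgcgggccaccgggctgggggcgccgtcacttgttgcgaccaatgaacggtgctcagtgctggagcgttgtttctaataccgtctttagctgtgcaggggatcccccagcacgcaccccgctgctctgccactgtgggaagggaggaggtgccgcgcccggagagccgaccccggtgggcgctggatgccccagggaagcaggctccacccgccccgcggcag
Slc7a8, chr14:54781837-54782136, minus strand: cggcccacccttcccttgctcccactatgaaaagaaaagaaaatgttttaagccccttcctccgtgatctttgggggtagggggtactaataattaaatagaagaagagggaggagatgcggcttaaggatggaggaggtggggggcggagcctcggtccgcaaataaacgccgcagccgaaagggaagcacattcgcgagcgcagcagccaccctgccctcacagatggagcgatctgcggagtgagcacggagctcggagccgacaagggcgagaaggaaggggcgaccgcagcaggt

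The motifs, searched on both strands and with overlaps between them allowed, were the composite element of ETS and IRF factors, the paired element of IRF factors, TTGCNNAA for the C/EBP factors, and the sequence AGATAAG, known from erythroid promoters as the GATA type. Of the 256 genes, 192 had a promoter in the table, with 253 entries, and 64, among them Slc36a2 and Slc40a1, had none. The composite occurred in 2.77% of the Slc promoters and in 2.72% of all 32851 promoters of the same length. The paired IRF element occurred in 1.58% and 3.44%, the C/EBP type in 7.91% and 10.8%, and the GATA type in 2.37% and 3.04%. None of the 4 motifs was found in the 11 promoters of the 7 genes that were called and at least 2-fold higher on arrays labelled Irf8KO in either population. In the 14 promoters of the 12 genes that were lower by the same measure, 3 held the C/EBP type, in Slc38a5, Slc25a12 and Slc6a9, and none held the other 3 motifs. In Slc38a5 the match lies from -118 to -111 relative to the start. These matches describe letters in a window only.

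The comparison of genotypes asked which carriers differ between arrays labelled Irf8KO and WT arrays within the same population. In Flt3+ GPs, 42 of the 256 Slc genes were called higher on the Irf8KO arrays and 41 lower at an adjusted p under 0.05, against 16.5% and 12.5% of all genes tested. Their median difference was 0.02, beside 0.04 over all genes. In Flt3- GPs 48 were called higher and 69 lower, against 16.5% and 27.2% of all genes, with a median of -0.00 beside -0.03. Differences of at least 2-fold among the called genes were seen for 8 higher and 16 lower in Flt3+ GPs, where 2.20% and 2.06% of all genes reached that size. In Flt3- GPs they were seen for 6 higher and 9 lower, against 1.78% and 1.88%. Among the 225 genes measured on all 8 arrays, 36 were called higher and 35 lower in Flt3+ GPs and 43 higher and 65 lower in Flt3- GPs. At least 2-fold differences among these 225 were seen for 2 higher and 11 lower in Flt3+ GPs and for 2 higher and 8 lower in Flt3- GPs, so most of the 2-fold rises were in genes that did not pass on every array. Without either array of Irf8KO Flt3+ GPs in turn, the total of 83 called in Flt3+ GPs became 52 and 53.

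**Figure D1:**
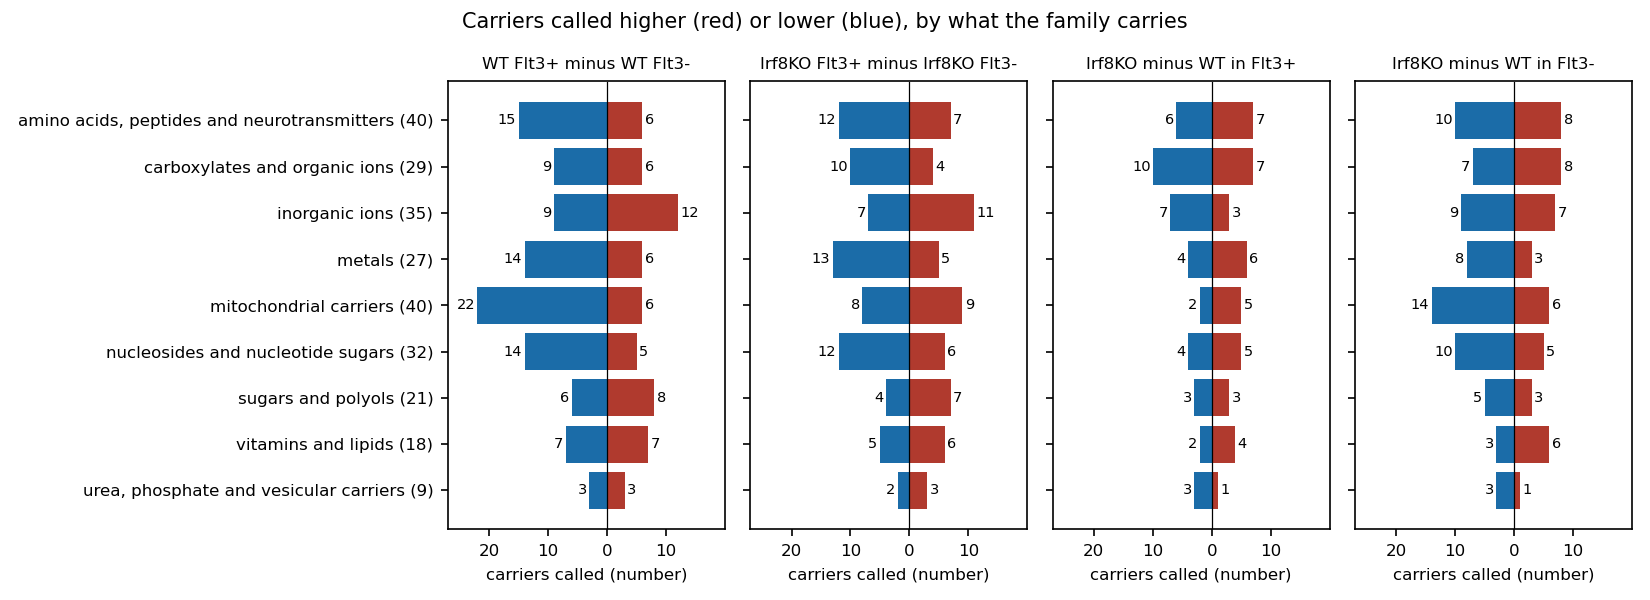
Number of Slc genes called higher (red, right) or lower (blue, left) in 4 comparisons, by what the family carries, with the size of each class in brackets. In WT mice 22 of the 40 mitochondrial carriers were lower in Flt3+ than in Flt3- GPs and 6 higher, beside 39.2% and 22.7% of all genes. With quantile normalization 14 were lower and 10 higher. Between genotypes in Flt3+ GPs 2 were lower and 5 higher, beside 12.5% and 16.5% of all genes.

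The differences with the widest span were in 3 genes. Slc13a3, a sodium-coupled carrier of dicarboxylates such as succinate, was not well above background on any of the 4 WT arrays, with values of -7.07 and -7.56 in Flt3+ and -6.93 and -7.40 in Flt3- GPs. On Irf8KO arrays it was at -1.72 and -1.76 in Flt3+ and at -2.06 and -2.16 in Flt3- GPs, well above background on each of the 4. Slc36a2, a proton-coupled carrier of glycine and proline, was at -4.97 and -5.79 in WT Flt3+ GPs, where it was not well above background, and at -1.45 and -1.25 in WT Flt3- GPs. On the Irf8KO arrays it was at -0.36 and -0.24 in Flt3+ and at 1.82 and 1.85 in Flt3- GPs. Within a population, both genes had every Irf8KO array above every WT array. Against the background level of the dim arrays, Slc13a3 was at least 11.2-fold higher in Flt3+ and at least 8.97-fold higher in Flt3- GPs, and Slc36a2 was at least 29.5-fold higher in Flt3+ GPs. In Flt3- GPs, Slc36a2 was higher by 3.18 (SE 0.26). Both genes were picked from earlier results of these data for this pattern, so their values are a description without a test.

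Slc38a5, a sodium-coupled carrier of glutamine, serine and glycine, went the other way. It was at -3.16 and -2.93 in WT Flt3+ and at -2.89 and -2.92 in WT Flt3- GPs, and between -7.28 and -6.76 on the 4 Irf8KO arrays, none of which measured it well above background. It was at least 4.87-fold lower in Flt3+ and at least 4.0-fold lower in Flt3- GPs, and it was kept by the rule through its WT groups, so these too are a description. With the normexp background correction, which adds an offset and so shrinks differences between dim signals, the fitted differences were -0.61 and -0.65 for Slc38a5. For Slc13a3 they were then 1.91 and 1.43, and for Slc36a2 2.69 in Flt3+ GPs.

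**Figure D2:**
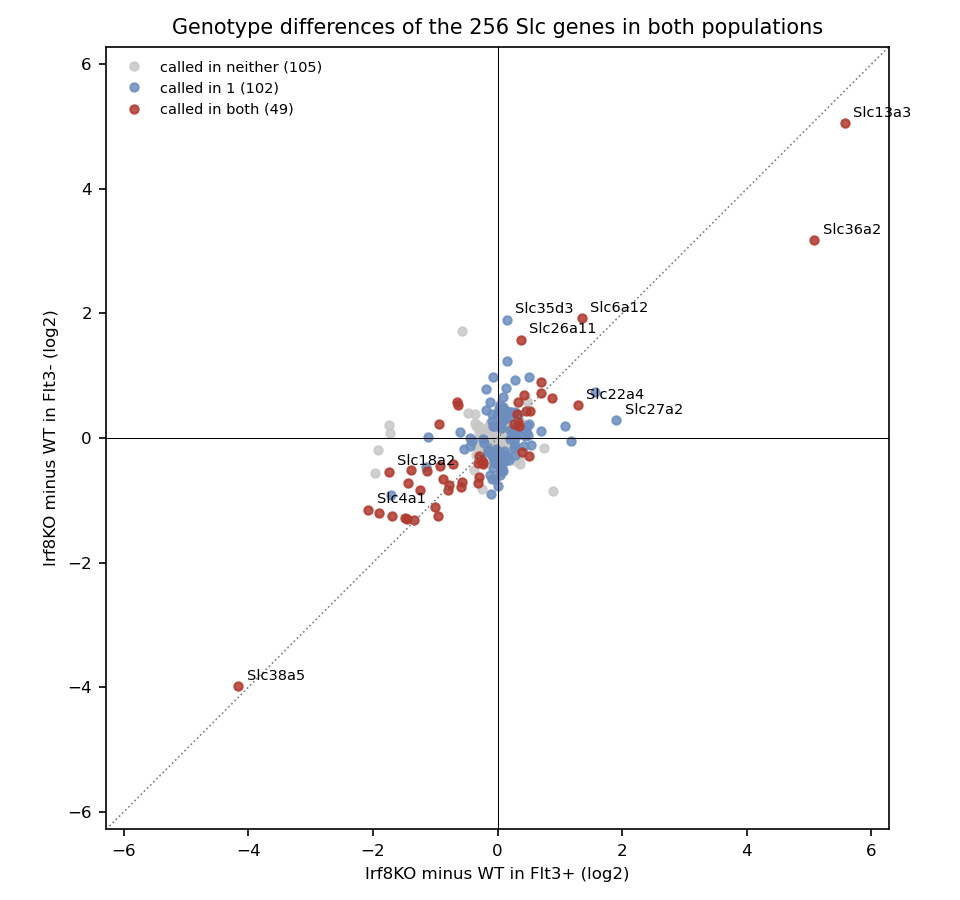
Each point is 1 of the 256 Slc genes, with its difference between arrays labelled Irf8KO and WT arrays (log2) in Flt3+ GPs on the horizontal axis and in Flt3- GPs on the vertical axis. The dotted line marks equal differences. Slc13a3 and Slc36a2 lie at the upper right and Slc38a5 at the lower left, apart from the other genes.

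The 2 genotype comparisons share no array. By the fitted differences 11 Slc genes were at least 2-fold apart in the same direction in both, 3 higher and 8 lower. That count was not made over all genes. Of the 41 Slc genes lower in Flt3+ GPs, 28 were also lower in Flt3- GPs (68.3% of the 41 and 40.6% of the 69). For all genes tested those shares were 53.9% and 24.9%. Of the genes called higher, 16 were shared (38.1% of the 42 and 33.3% of the 48), beside 39.3% and 39.3% for all genes. Across the 256 genes the 2 sets of differences had a Pearson r of 0.73 and a Spearman rho of 0.44, beside 0.51 and 0.32 over all genes. These are descriptions across genes, which are not independent replicates, and all 8 arrays share 1 slide. Slc13a3, Slc36a2 and Slc38a5, picked or kept for this contrast, are in the counts and lie farthest out in the Pearson r. No excess over all genes is therefore read from these values.

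Among the 8 genes lower in both populations were carriers best known from red cells and iron handling. Slc4a1, the chloride and bicarbonate exchanger band 3 of red cells, was at -1.94 and -1.92 in WT Flt3+ and at -2.24 and -2.15 in WT Flt3- GPs. On the Irf8KO arrays it was at -3.94 and -4.07 and at -3.51 and -3.17. All Irf8KO values lay below all WT values, with differences of -2.07 (SE 0.12, adjusted p = 0.00017) in Flt3+ and -1.15 (SE 0.12, adjusted p = 0.0011) in Flt3- GPs. Slc14a1, the urea transporter that carries the Kidd antigens in people, was at 1.48 and 1.60 (WT Flt3+), -0.55 and -0.65 (WT Flt3-), 0.09 and 0.02 (Irf8KO Flt3+), and -1.86 and -1.92 (Irf8KO Flt3-). It was 2.80-fold lower on the Irf8KO arrays in Flt3+ (adjusted p = 7.5e-05) and 2.44-fold lower in Flt3- GPs (adjusted p = 0.00017). Slc6a9, which brings in glycine for haem synthesis, was 2.01-fold lower (adjusted p = 0.00831) and 2.16-fold lower (adjusted p = 0.00361).

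Slc40a1 encodes ferroportin, the only known iron exporter of mammalian cells. It was at -3.00 and -3.10 in WT Flt3+ GPs and at 0.13 and 0.14 in WT Flt3- GPs. On the Irf8KO arrays it was at -4.73 and -4.75 in Flt3+ and at -1.15 and -1.09 in Flt3- GPs. The differences between genotypes were -1.69 (SE 0.05, adjusted p = 1.83e-05) and -1.26 (SE 0.05, adjusted p = 8.61e-05), and with the normexp correction the first was -0.28. With normexp the differences of Slc4a1 were -0.86 and -0.41, and that of Slc6a9 in Flt3- GPs was -0.39. The 9 measured erythroid markers of 10 listed, among them Hba-a1, Klf1 and Car1, were all called lower on the Irf8KO arrays in both populations. The summed signal of these 9 markers, in units of the 75th percentile, was 51.1 to 53.4 in WT Flt3+ and 21.1 to 21.3 in WT Flt3- GPs. It was 20.3 on both arrays of Irf8KO Flt3+ and 9.34 to 9.85 in Irf8KO Flt3- GPs. Car2, the largest part of it, was at 4.97 and 5.06 in WT Flt3+ and at 4.19 on both Irf8KO Flt3+ arrays. Hba-a1 was at 1.69 to 3.16 on the WT arrays and at -3.72 to -3.13 on the Irf8KO arrays. Alas2 was not well above background in Irf8KO Flt3+ GPs, nor were Klf1, Alas2 and Rhd in Irf8KO Flt3- GPs. The part of erythroid cells in the values of Slc4a1, Slc14a1, Slc6a9, Slc38a5 and Slc40a1 was not tested, and fewer cells of a type and less RNA per cell cannot be told apart in such bulk samples.

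Slc22a3, an organic cation carrier that takes up histamine, was at -0.85 and -0.84 in WT Flt3+ and at -0.79 and -0.91 in WT Flt3- GPs, and at -2.23 and -2.36 and at -2.02 and -2.29 on the Irf8KO arrays. The genotypes did not overlap, and the gene was 2.73-fold lower in Flt3+ (adjusted p = 0.000365) and 2.46-fold lower in Flt3- GPs (adjusted p = 0.000494). Slc7a8, a light chain for neutral amino acids, was 3.74-fold lower in Flt3+ (adjusted p = 1.92e-05) and 2.29-fold lower in Flt3- GPs (adjusted p = 0.000138). Slc18a2, which loads histamine and other monoamines into vesicles, was at 0.39 and 0.44 (WT Flt3+), 2.13 and 2.18 (WT Flt3-), -1.30 and -1.36 (Irf8KO Flt3+), and 1.68 and 1.56 (Irf8KO Flt3-). Its difference between genotypes was -1.74 (SE 0.06, adjusted p = 2.56e-05) in Flt3+ and -0.54 in Flt3- GPs, both called. The 12 listed markers of eosinophils, basophils and mast cells, among them Cpa3, Hdc and Ms4a2, had summed signals of 18.1 to 18.9 in WT Flt3+ and 152 in WT Flt3- GPs. Ms4a2 passed the background flag on no array of either Flt3+ group, nor did Fcer1a on the Irf8KO arrays. On the arrays labelled Irf8KO the sums were 7.78 to 8.13 and 74.3 to 74.4. Of the 12, 7 were called lower and 1 higher on them in Flt3+ GPs, beside 12.5% and 16.5% of all genes. In Flt3- GPs 10 were called lower, beside 27.2%. The rule used the contrast between genotypes for Fcer1a, so its fall is a description. The sum of the 7 megakaryocyte markers was 13.6 to 14.4 and 7.83 to 7.88 on the WT arrays, and 4.44 to 4.75 and 5.32 to 5.34 on the Irf8KO arrays, none of which measured Ppbp above background. With normexp the differences of Slc22a3 were -0.92 and -0.76, and that of Slc7a8 in Flt3+ GPs was -0.86. The part of either list in the values of Slc18a2, Slc22a3 and Slc7a8 was not tested.

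Slc25a12, the mitochondrial exchanger of aspartate and glutamate, completed the 8. It was at 4.07 and 4.17 (WT Flt3+), 4.47 and 4.54 (WT Flt3-), 2.75 and 2.82 (Irf8KO Flt3+), and 3.14 and 3.22 (Irf8KO Flt3-). The differences between genotypes were -1.33 (SE 0.06, adjusted p = 8.42e-05) in Flt3+ and -1.32 (SE 0.06, adjusted p = 0.000116) in Flt3- GPs, and the difference between them was -0.01 (SE 0.08). Of the other 39 mitochondrial carriers, none was called and 2-fold lower in either population. In Flt3- GPs 14 of the 40 were called lower and 6 higher (35% and 15%, beside 27.2% and 16.5% of all genes). In Flt3+ GPs 2 were lower and 5 higher (5% and 12.5%, beside 12.5% and 16.5%).

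**Figure D3:**
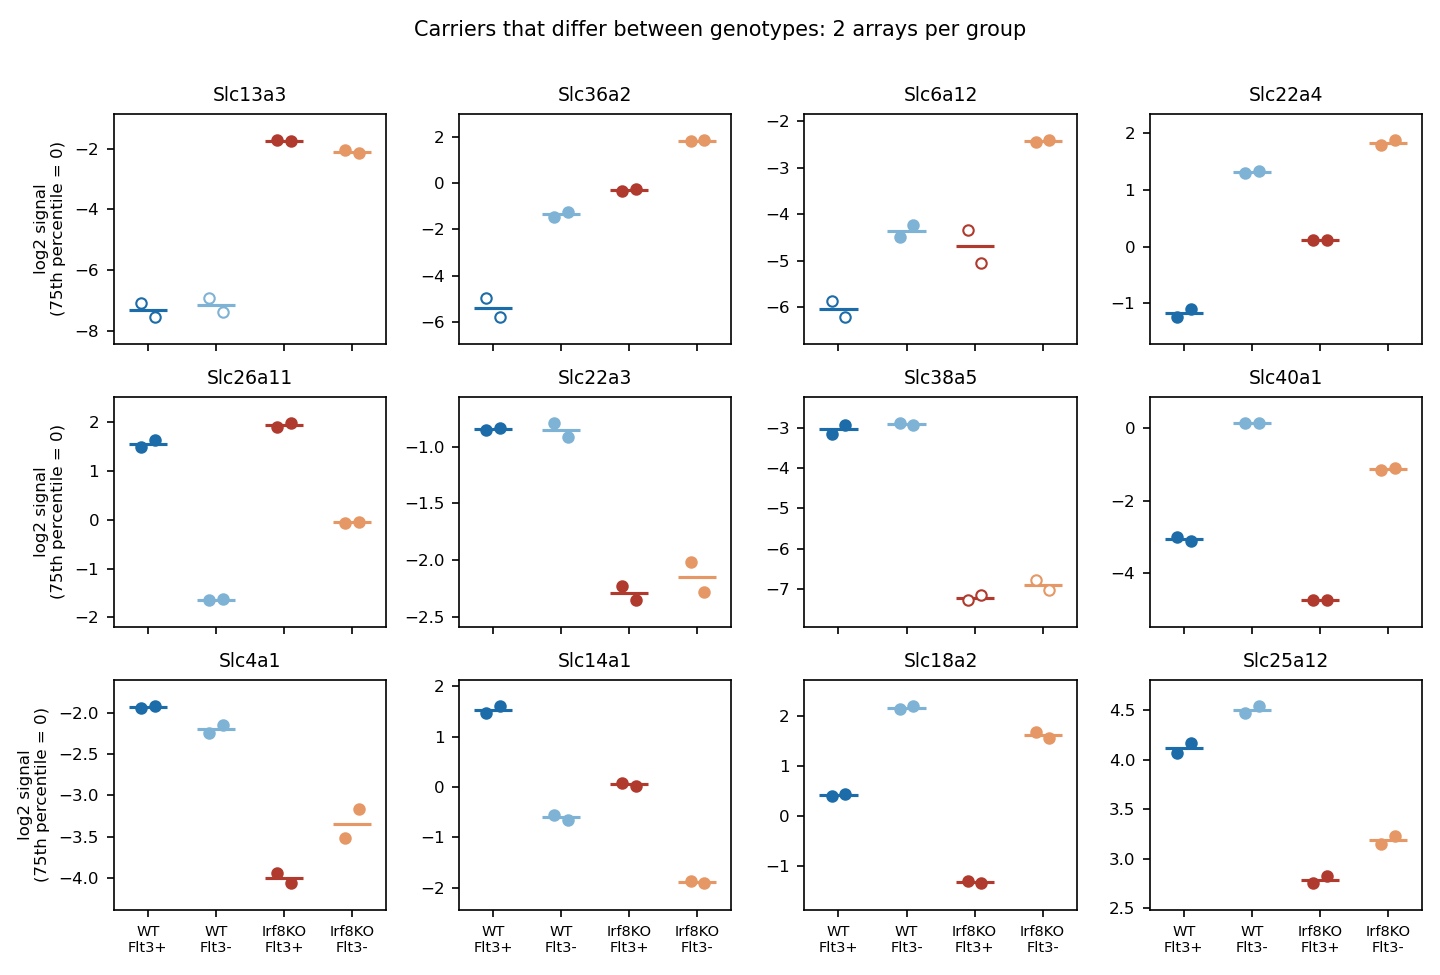
Log2 signal of 12 Slc genes on every array, with 1 point per array and a bar at the mean of the 2 arrays of a group. Open points belong to groups in which the gene was not well above background on both arrays, and each panel has its own vertical scale. Slc13a3 has open points in both WT groups and Slc38a5 in both Irf8KO groups.

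Slc16a9, a monocarboxylate family member, was 2.72-fold lower in Irf8KO Flt3+ GPs (adjusted p = 0.000519), with a difference of -0.81 with normexp. Slc2a6, a sugar carrier of lysosomes, was 2.39-fold lower in Irf8KO Flt3- GPs (adjusted p = 0.000135). In Flt3+ GPs its fitted difference was -0.96, and a second probe gave -1.21 there and -1.55 in Flt3- GPs.

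Among other genes higher on Irf8KO arrays, Slc6a12, a carrier of betaine and GABA, was called in both populations. It was at -5.87 and -6.22 in WT Flt3+ GPs, where no array measured it well above background, and at -4.48 and -4.24 in WT Flt3- GPs. On the Irf8KO arrays it was at -4.35 and -5.04 in Flt3+ GPs, well above background on 1 of them, and at -2.46 and -2.42 in Flt3- GPs. In Flt3- GPs the rise was 1.92 (SE 0.24, adjusted p = 0.00215), and in Flt3+ GPs it was at least 1.45-fold (adjusted p = 0.0115). With normexp the fitted differences of Slc6a12 were 0.85 and 0.56. Slc22a4, a carrier of the antioxidant ergothioneine, was at -1.25 and -1.09 (WT Flt3+), 1.29 and 1.33 (WT Flt3-), 0.12 on both arrays (Irf8KO Flt3+), and 1.80 and 1.88 (Irf8KO Flt3-). It was 2.44-fold higher in Flt3+ GPs (adjusted p = 0.000112) and higher by 0.53 in Flt3- GPs, also called. Slc26a11, a sulfate and anion carrier of lysosomes, was at 1.47 and 1.63 in WT Flt3+ and at -1.65 and -1.63 in WT Flt3- GPs, and at 1.89 and 1.96 and at -0.07 and -0.05 on the Irf8KO arrays. It was 2.99-fold higher in Flt3- GPs (adjusted p = 8.77e-05) and higher by 0.38 in Flt3+ GPs, also called. The summed signal of the 10 markers of late neutrophil granules, among them Ltf, Camp and Lcn2, was 8.43 to 8.63 and 16.04 to 16.53 on the WT arrays. It was 38.3 to 39.1 and 33.4 on the Irf8KO arrays, and all 10 markers were called higher in both populations. Mmp9 passed the background flag on no WT array, nor did Cd177 in WT Flt3+ and Mmp8 in WT Flt3- GPs. The sum of the 6 monocyte markers was 76.95 to 80.05 and 72.0 to 72.4 on the WT arrays, and 137 to 141 and 143 to 144 on the Irf8KO arrays. In Flt3+ GPs 4 were called higher and 1 lower, beside 16.5% and 12.5% of all genes. In Flt3- GPs there were 3 each way, beside 16.5% and 27.2%. F13a1, the largest part of the sum, was at 4.91 to 5.15 on the WT and 6.46 to 6.66 on the Irf8KO arrays. Ly86 went the other way, from 3.60 to 3.96 on the WT arrays to -4.67 to -4.28 on the Irf8KO arrays. The part of these marker lists in the carriers that rose was not tested.

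Calls of Slc27a2 and Slc7a2 were lost when single arrays were left out. Slc27a2, an activating enzyme and carrier of very long chain fatty acids, was at 0.50 and -0.62 in WT Flt3+ and at 1.80 and 1.89 in Irf8KO Flt3+ GPs. Its difference was 1.90 (SE 0.34, adjusted p = 0.0113), and without either Irf8KO Flt3+ array the adjusted p was 0.0548 and 0.0638. The arginine carrier Slc7a2, above background on 1 Irf8KO Flt3+ array and on neither WT Flt3+ array, was higher by a fitted 1.56 in Flt3+ GPs (adjusted p = 0.0156), with adjusted p of 0.0804 and 0.0562 without the first and the second Irf8KO Flt3+ array.

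Other carriers were well above background on both arrays of 1 genotype and on fewer of the other, and are described without a test. Slc11a1, which pumps iron and manganese out of the phagosome, was at -3.98 and -4.24 in Irf8KO Flt3+ GPs and at least 2.07-fold higher there than in WT Flt3+ GPs. Slc35f1 was higher by 1.23 in Irf8KO Flt3- GPs, and by 0.68 without the first WT Flt3- array. Slc22a23 and Slc4a11 were well above background on both WT Flt3+ arrays and on neither Irf8KO Flt3+ array, and were at least 1.88-fold and 1.70-fold lower on the latter. Their sign turned with the normexp correction, to 0.02 and 0.06. Slc23a4 was at least 1.64-fold lower in Irf8KO Flt3- GPs, with a fitted difference of -0.05 with normexp. In the same way Slc52a3 and Slc9a2 in Flt3+ GPs and Slc4a3 in Flt3- GPs were well above background on both arrays of 1 genotype and on neither of the other.

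The comparison of populations asked which carriers differ between Flt3+ and Flt3- GPs within a genotype. In WT mice 59 Slc genes were called higher in Flt3+ GPs and 100 lower, against 22.7% and 39.2% of all genes tested. On arrays labelled Irf8KO, 58 were higher and 75 lower, against 22.1% and 23.7%. The median difference of the Slc genes in WT mice was -0.12, equal to that of all genes at this precision. Quantile normalization moved the median of all genes to -0.01, and with it 74 Slc genes were called higher and 89 lower. At least 2-fold differences among the called were found for 29 higher and 23 lower in WT mice, beside 7.81% and 5.23% of all genes, and for 21 higher and 21 lower on Irf8KO arrays, beside 6.09% and 4.37%. Among the 225 genes measured on all arrays, 18 were at least 2-fold higher and 18 lower in WT mice, and 11 higher and 18 lower on Irf8KO arrays. The 2 comparisons share no array, and 19 Slc genes were at least 2-fold higher and 19 lower in both. That count was not made over all genes. At any size, 67.8% of the Slc genes called higher between WT populations were also higher between Irf8KO populations, beside 66.3% for all genes tested. Of those called lower, 61% were shared, beside 49.6%. As shares of the calls between Irf8KO populations these were 69.0% and 81.3%, beside 68.0% and 82.3%.

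The largest rise among genes measured on all arrays was that of Slc35d3, a member of the nucleotide sugar family that is needed for dense granules of platelets. It was at 1.15 and 1.43 in WT Flt3+ and at -4.57 and -4.27 in WT Flt3- GPs, a 52.5-fold difference (log2 5.71, SE 0.13, adjusted p = 2.17e-06). On the arrays labelled Irf8KO it was at 1.36 and 1.51 and at -2.55 and -2.49, a 15.6-fold difference (adjusted p = 8.17e-06). Slc18a1, the second vesicular loader of monoamines, was at -0.50 and -0.19 in WT Flt3+ and at -0.86 and -0.78 in Irf8KO Flt3+ GPs. It passed the background flag on no Flt3- array, so it was at least 26.2-fold higher in WT Flt3+ GPs and at least 17-fold higher in Irf8KO Flt3+ GPs, a description since these groups kept it. The 2 loaders of monoamines thus ran in opposite directions, since Slc18a2 was 3.35-fold lower in WT Flt3+ than in WT Flt3- GPs (adjusted p = 6.12e-06) and 7.70-fold lower on the Irf8KO arrays (adjusted p = 1.71e-06).

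Slc27a2 was 19.9-fold higher in WT Flt3+ than in WT Flt3- GPs (adjusted p = 0.000152) and 61.1-fold higher on the Irf8KO arrays (adjusted p = 5.65e-05), where the Flt3- values were -3.98 and -4.20. Slc16a11, a monocarboxylate carrier, was at 3.38 and 3.48 (WT Flt3+), -0.91 and -0.82 (WT Flt3-), 2.00 and 2.08 (Irf8KO Flt3+), and -1.49 and -1.27 (Irf8KO Flt3-). The 2 populations were 19.7-fold apart in WT mice (adjusted p = 1.31e-06) and 10.71-fold apart on the Irf8KO arrays (adjusted p = 3.51e-06). Slc26a11 was 9.14-fold higher (adjusted p = 1.18e-06) and Slc14a1 4.41-fold higher (adjusted p = 4.85e-06) in WT Flt3+ GPs. Slc25a53, a mitochondrial carrier without a known cargo, was at least 10.6-fold higher in WT Flt3+ GPs and at least 9.05-fold higher on the Irf8KO arrays by the probe used. A second probe of Slc25a53, well above background on 5 arrays against 4, gave fitted differences of 1.95 and 0.76, so the size rests on the probe. With normexp the differences in WT mice were smaller for Slc35d3 (3.72), Slc18a1 (2.30), Slc27a2 (2.60) and Slc25a53 (1.37). The sum of the 8 lymphoid and plasmacytoid dendritic markers was 336 to 359 in WT Flt3+ and 204 to 217 in WT Flt3- GPs, and 472 to 499 and 244 to 261 on the Irf8KO arrays. Siglech, a large part of it, was at 7.45 to 7.91 on all arrays. Of the 8 markers, 5 were called higher and none lower in WT Flt3+ than in WT Flt3- GPs (62.5% higher, beside 22.7% of all genes). Between Irf8KO populations 6 were called higher and none lower (75%, beside 22.1%). Dntt was at 6.81 and 6.91 in WT Flt3+ and at -1.17 and -1.20 in WT Flt3- GPs. Of the 8, Rag1 and Il7r passed the background flag on no Flt3- array. The rule thus used the contrast between populations for both genes. The counts and shares above include them and are descriptions to that extent. The part of this list in the carriers of Flt3+ GPs was not tested.

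Sugar and lactate carriers were split between the populations. Slc2a3, a glucose carrier of high affinity, was at 2.11 and 2.21 in WT Flt3+ and at 1.13 and 1.06 in WT Flt3- GPs, and was 2.08-fold higher in WT Flt3+ GPs (adjusted p = 0.000169). The widely expressed glucose carrier Slc2a1 lay between 1.07 and 1.52 on all 8 arrays and did not pass the threshold in WT mice. The lactate exporter Slc16a3 was at 0.34 and 0.35 in WT Flt3+ and at 1.70 and 1.73 in WT Flt3- GPs, 2.58-fold lower in the former (adjusted p = 1.5e-05). The monocarboxylate carriers Slc16a7 and Slc16a8 were 4.68-fold lower (adjusted p = 3.34e-05) and 4.84-fold lower (adjusted p = 3.92e-06). Slc16a1, the monocarboxylate carrier of most cells, lay between -2.41 and -2.04 on all arrays and was called in none of the comparisons. Of the 12 members of family Slc16, 3 were called higher and 5 lower in WT Flt3+ GPs, near the shares of all genes (22.7% and 39.2%).

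Of the 27 metal carriers, 14 were called lower and 6 higher in WT Flt3+ GPs (51.9% and 22.2%, beside 39.2% and 22.7% of all genes). On the Irf8KO arrays 13 were lower and 5 higher (48.1% and 18.5%, beside 23.7% and 22.1%). With quantile normalization the counts in WT mice were 13 and 9. Slc40a1 was 9.08-fold lower in WT Flt3+ than in WT Flt3- GPs (adjusted p = 7.11e-07) and 12.2-fold lower on the Irf8KO arrays (adjusted p = 8.26e-07). Slc31a2, a copper carrier of endosomes, was at -0.54 and -0.48 in WT Flt3+ and at 1.41 and 1.46 in WT Flt3- GPs, 3.84-fold lower in the former (adjusted p = 6.17e-06). The zinc carriers Slc30a4 and Slc39a14 went the other way, 2.87-fold higher (adjusted p = 0.00016) and 2.27-fold higher (adjusted p = 0.000319) in WT Flt3+ GPs. Of the 40 carriers of amino acids, peptides and neurotransmitters, 15 were called lower and 6 higher in WT Flt3+ GPs (37.5% and 15%), a lower share near that of all genes, and 12 and 8 with quantile normalization. Slc7a8 was at -1.85 and -1.71 in WT Flt3+ and at 1.18 and 1.14 in WT Flt3- GPs, 7.67-fold lower in the former (adjusted p = 1.11e-06). On the Irf8KO arrays it was at -3.66 and -3.71 and at -0.03 and -0.05, a 12.5-fold difference (adjusted p = 1.02e-06). Slc36a2 was at least 14.2-fold lower in WT Flt3+ GPs. Slc15a3, a carrier of peptides and histidine in lysosomes, was at least 3.04-fold higher in WT Flt3+ and at least 2.19-fold higher in Irf8KO Flt3+ than Flt3- GPs. Slc22a4 was 5.58-fold lower (adjusted p = 2.91e-06), and so were, at 4.08-fold and 3.01-fold, the mitochondrial calcium exchanger Slc8b1 (adjusted p = 3.89e-06) and the folate carrier Slc46a1 (adjusted p = 9.42e-06). The markers of eosinophils, basophils and mast cells, whose sums are given above, had larger sums in Flt3- GPs, and their part in these values was not tested.

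**Figure D4:**
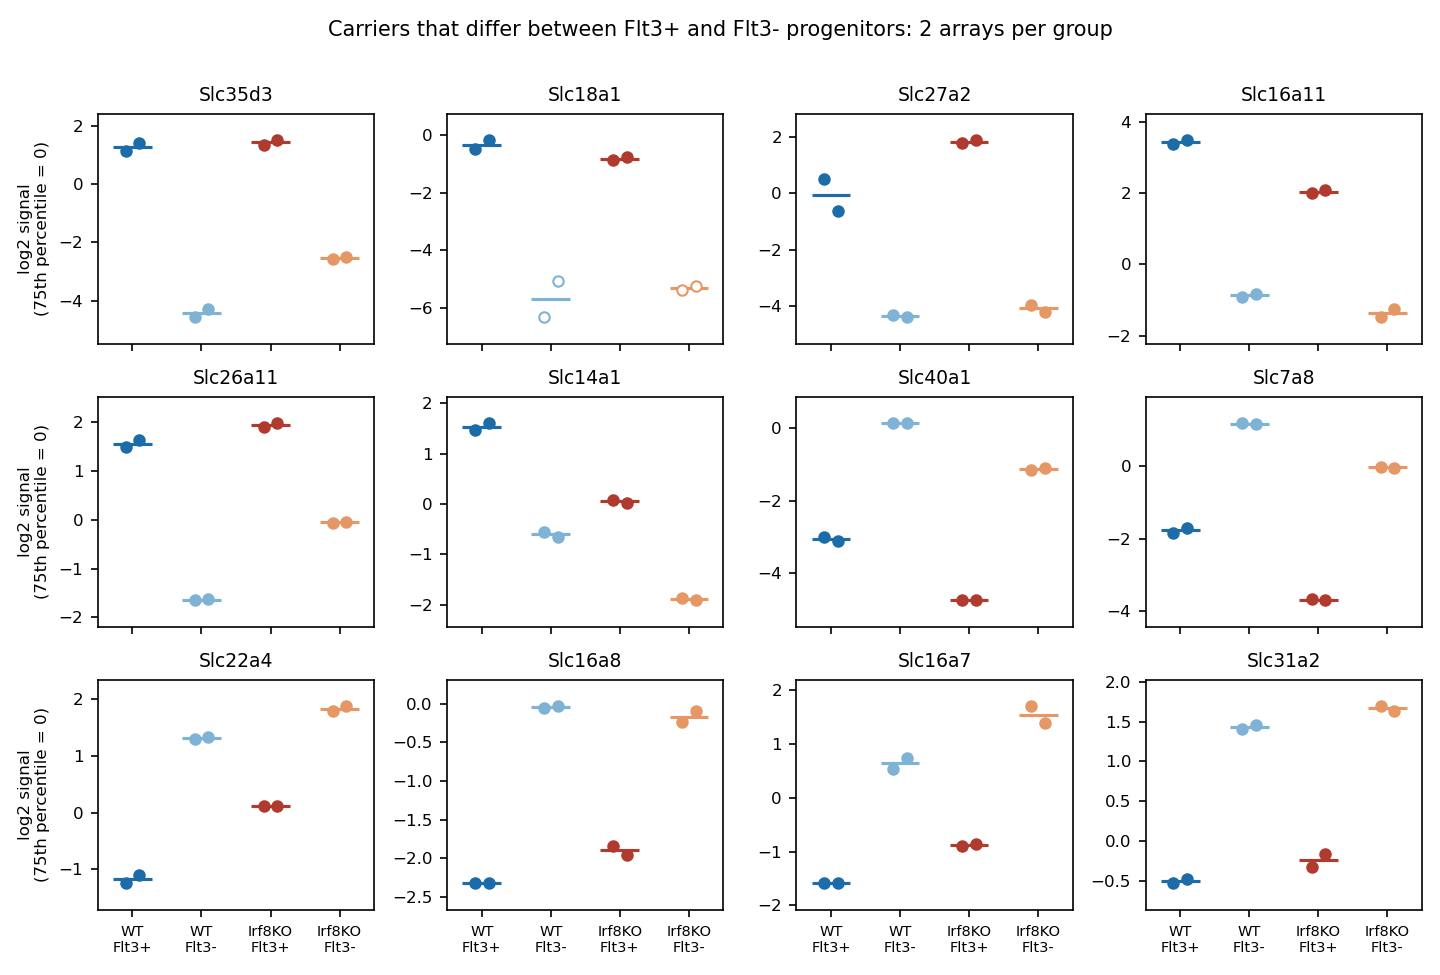
Log2 signal of 12 Slc genes on every array, with 1 point per array and a bar at the mean of the 2 arrays of a group. Open points belong to groups in which the gene was not well above background on both arrays, and each panel has its own vertical scale. Slc35d3, Slc18a1, Slc27a2, Slc16a11, Slc26a11 and Slc14a1 are higher in Flt3+ GPs of both genotypes, and the other 6 genes are higher in Flt3- GPs of both genotypes.

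Smaller shifts made up most calls in the mitochondrial family. Of the 40 mitochondrial carriers, 22 were called lower and 6 higher in WT Flt3+ GPs (55% and 15%, beside 39.2% and 22.7% of all genes), with a median difference of -0.23 beside -0.12 for all genes. With quantile normalization 14 were lower and 10 higher, with a median of -0.02. Between Irf8KO populations 8 were lower and 9 higher (20% and 22.5%, beside 23.7% and 22.1% of all genes). Of the 32 nucleoside and nucleotide sugar carriers, 14 were lower and 5 higher in WT Flt3+ GPs (43.8% and 15.6%, the first near the share of all genes), and 13 and 6 with quantile normalization. Among them Slc35b1, which exchanges ATP and ADP across the endoplasmic reticulum, was 2.35-fold lower (adjusted p = 6.12e-06). Slc28a2 and Slc28a2b, near-identical nucleoside carriers whose probes may not tell them apart, were 2.78-fold and 3.02-fold lower. Slc35f2 was 4.78-fold higher in Irf8KO Flt3+ than in Irf8KO Flt3- GPs (adjusted p = 3.56e-06). Slc44a4, of the choline transporter family, was at least 2.53-fold lower in WT Flt3+ GPs and at least 5.34-fold lower in Irf8KO Flt3+ GPs. Slc45a1, a sugar carrier, was at least 2.72-fold lower in WT Flt3+ GPs, and its WT Flt3- arrays were at -2.94 and -4.64. Slc27a6 and Slc37a3, which passed the background flag on no Flt3- array, were at least 2.03-fold and 1.55-fold higher in WT Flt3+ GPs. Their fitted differences were 2.73 and 2.50, and 0.14 and 0.12 with normexp.

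The interaction asked for which carriers the difference between genotypes depends on the population. It was called for 71 Slc genes, with 44 more positive and 27 more negative in Flt3+ GPs, against 21.4% and 9.48% of all genes tested. Of these 2 were positive and 7 negative with a size of at least 1 on the log2 scale, beside 1.36% and 1.69% of all genes. Among the 225 genes measured on all arrays none was positive and 7 were negative at that size, with 42 positive and 27 negative called at any size. The split depended on the scaling, since quantile normalization gave 31 positive and 30 negative. The count of 71 became 44 and 38 without either WT Flt3- array, and 46 and 39 without either Irf8KO Flt3+ array.

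Slc15a2, Slc7a7 and Slc22a18 moved in opposite directions in the 2 populations. Slc15a2, a proton-coupled carrier of small peptides, was at 0.70 and 0.73 (WT Flt3+), -0.42 and -0.41 (WT Flt3-), 0.15 and -0.01 (Irf8KO Flt3+), and 0.17 and 0.14 (Irf8KO Flt3-). It was lower by 0.65 in Flt3+ and higher by 0.57 in Flt3- GPs on the Irf8KO arrays, both called. Between populations the difference was 1.13 in WT mice and -0.09, not called, on the Irf8KO arrays. Slc7a7, a light chain for cationic amino acids, fell by 0.63 in Flt3+ and rose by 0.54 in Flt3- GPs. Slc22a18, an imprinted carrier related to those of organic cations, fell by 0.94 and rose by 0.23. The interactions were -1.22 (adjusted p = 0.00129), -1.16 (adjusted p = 0.0018) and -1.17 (adjusted p = 0.00141).

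Slc35d3 and the mitochondrial uncoupling-type carrier Slc25a27 differed between genotypes in Flt3- GPs, where they rose by 1.90 and 0.97, and were at 0.15 and -0.07 in Flt3+ GPs, where neither was called. Their interactions were -1.75 (adjusted p = 0.00324) and -1.04 (adjusted p = 0.0013). Slc18a2 and Slc26a11 had interactions of -1.20 each (adjusted p = 0.00119 and 0.00147). On the positive side, Slc36a2 had an interaction of 1.90 and Slc25a41, a mitochondrial carrier of adenine nucleotides seen in Irf8KO Flt3+ GPs only, a fitted 1.23 against groups at background. Both values are descriptions, and with normexp they were -0.08 and 0.25.

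The CD98 heavy chain, a light chain and an arginine carrier were lower on the Irf8KO arrays in Flt3- GPs by the probes used. Slc3a2, the CD98 heavy chain, was at 3.92 and 3.87 (WT Flt3+), 4.50 and 4.49 (WT Flt3-), 3.83 and 3.78 (Irf8KO Flt3+), and 3.87 and 3.79 (Irf8KO Flt3-). Slc7a5 is a light chain for large neutral amino acids. In the same order of groups it was at 1.45 and 1.59, at 2.17 and 2.10, at 1.37 and 1.46, and at 1.23 and 1.24. Slc7a1, the main carrier of arginine, was at 3.80 and 4.01, at 4.19 on both arrays, at 3.86 and 3.96, and at 3.49 and 3.34. In each the WT Flt3- arrays were the highest, and in Flt3- GPs the Irf8KO arrays were lower by 0.66 (adjusted p = 0.000409), 0.90 (adjusted p = 0.000393) and 0.78 (adjusted p = 0.00161). In Flt3+ GPs the differences were -0.08, -0.10 and 0.01 and were not called, and the interactions were 0.58, 0.80 and 0.78 (adjusted p = 0.00363, 0.00342 and 0.00864). A second probe of Slc7a5 gave -0.10 in Flt3- GPs and an interaction of -0.15, so the pattern of Slc7a5 rests on 1 of its 2 probes.

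**Figure D5:**
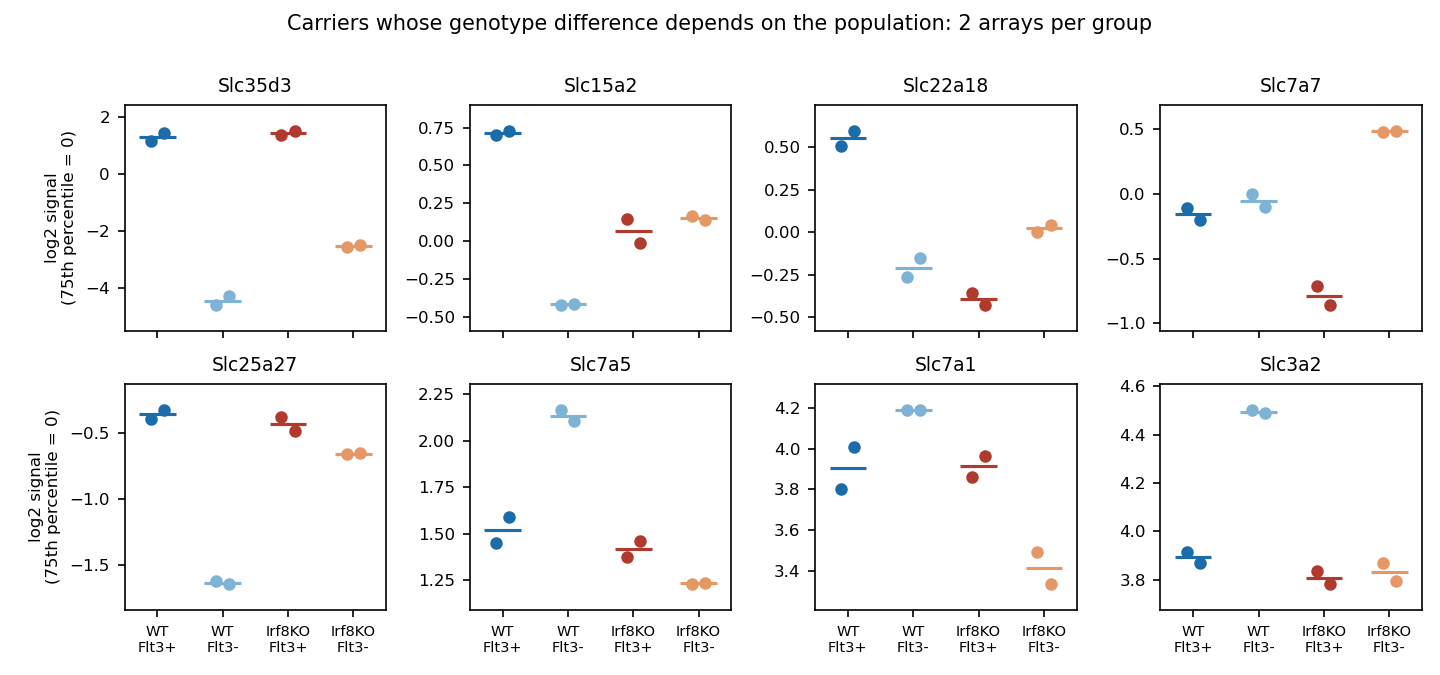
Log2 signal of 8 Slc genes on every array, with 1 point per array and a bar at the mean of the 2 arrays of a group, each panel on its own vertical scale. Slc15a2, Slc22a18 and Slc7a7 are lower on the Irf8KO arrays in Flt3+ GPs and higher in Flt3- GPs, and Slc7a5, Slc7a1 and Slc3a2 are highest on the WT Flt3- arrays.

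A list of 27 carriers known from myeloid cells, red cells or most cells had 25 members here (Slc6a4 and Slc7a11 did not pass the rule). In Flt3+ GPs 5 of the 25 were called higher and 6 lower on the Irf8KO arrays, and in Flt3- GPs 3 higher and 13 lower. As shares these were 20% and 24%, beside 16.5% and 12.5% of all genes, and 12% and 52%, beside 16.5% and 27.2%. Between populations 2 were called higher and 12 lower in WT Flt3+ GPs (8% and 48%, beside 22.7% and 39.2%), and 8 higher and 8 lower on the Irf8KO arrays (32% each, beside 22.1% and 23.7%). The list was chosen with earlier results of these data known. Some widely expressed members changed little, while others given above, such as Slc3a2 and Slc7a1, changed more. The glutamine carrier Slc1a5 lay between 3.37 and 3.66 on all arrays, and the histidine and peptide carrier Slc15a4 of lysosomes between 4.001 and 4.21. Slc29a1, the main nucleoside carrier, was at 4.26 and 4.36 in Irf8KO Flt3+ GPs and at 3.82 and 3.88 in WT Flt3+ GPs, higher by 0.46 in the former and called. Slc25a37, the iron carrier mitoferrin of erythroid mitochondria, was higher by 0.69 (adjusted p = 0.000888) in Flt3+ GPs and by 0.72 in Flt3- GPs on the Irf8KO arrays, while its second probe gave -0.10 and 0.16.

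Several small calls of members of this list were lost with 1 array left out. In WT mice the falls of Slc1a5 (-0.23) and Slc7a1 (-0.29) reached an adjusted p of 0.0939 and 0.13 without the first WT Flt3+ array (0.0515 for Slc7a1 with the experiment as a block), and that of the haem pathway carrier Slc25a38 (-0.19) reached 0.0786 without the first WT Flt3- array. Between genotypes in Flt3- GPs the falls of Slc11a2 (-0.31), Slc20a1 (-0.38) and Slc38a1 (-0.29) reached 0.0813, 0.104 and 0.0647, without the first Irf8KO Flt3-, the second Irf8KO Flt3- and the second WT Flt3- array. Between populations on the Irf8KO arrays, Slc20a1 (0.39), Slc25a39 (-0.18) and Slc2a1 (0.26) reached 0.0986, 0.0705 and 0.176 without the second Irf8KO Flt3+ array. Slc16a3 in Flt3+ GPs (-0.29) reached 0.0714 without the first Irf8KO Flt3+ array.

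Transport genes outside the Slc symbols were read from a list of 49, of which 46 were measured. In WT Flt3+ GPs 12 of the 46 were called higher and 20 lower (26.1% and 43.5%, near the 22.7% and 39.2% of all genes), and on the Irf8KO arrays 16 and 15 (34.8% and 32.6%, beside 22.1% and 23.7%). Between genotypes 12 were higher and 15 lower in Flt3+ GPs (26.1% and 32.6%, beside 16.5% and 12.5%), and 6 higher and 18 lower in Flt3- GPs (39.1% lower, beside 27.2%). Abca9, an ABC transporter of lipids, rose on the Irf8KO arrays by 3.89 in Flt3+ and 3.84 in Flt3- GPs. The water channel Aqp1 of red cells, which is also on the erythroid list, fell by 1.19 and 2.19. Slco2b1, an organic anion carrier outside the Slc symbols, was at -3.50 and -3.39 in WT Flt3+ and at -4.32 and -4.40 in Irf8KO Flt3+ GPs, and was not well above background on the Flt3- arrays. Bsg, the partner that brings lactate carriers to the membrane, was lower by 0.53 in WT Flt3+ GPs, and Mpc1 of the mitochondrial pyruvate carrier by 0.96.

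Among genes with several passing probes, probes could disagree in sign. In WT mice 36 of 41 such called genes had all probes on 1 side of 0 between populations, and 29 of 32 did on the Irf8KO arrays. Between genotypes it was 16 of 20 in Flt3+ and 27 of 29 in Flt3- GPs, and 19 of 20 in the interaction. Those that disagreed in the comparisons between genotypes were Slc25a37, Slc30a7, Slc35e1 and Slc9a8 in Flt3+ GPs and Slc11a2 and Slc35a3 in Flt3- GPs.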

How the data were processed

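RNA of 8 samples was measured on one-colour (Cy3) arrays. Per the file headers, the intensity values were extracted with Agilent Feature Extraction 10.7.3.1 (protocol GE1_107_Sep09) and deposited linear, unscaled between arrays. The flags for background and outliers were used as deposited, other columns of 0 or 1. The deposited series table is the processed intensity scaled by a single factor for each array (0.672 to 1.33), linear and uncentred, and served as an alternative.

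Control and outlier spots were left out, spots of a probe averaged, and log2 of the intensity taken minus the 75th percentile of the array. Probes were named through RefSeq accessions (GRCm38.p6; 26762 of 55681 probes, with 496 messenger RNA accessions unmatched). A model with a mean for each of the 4 groups was fitted in limma 3.58.1 (R 4.3.3; lmFit, eBayes), with Benjamini-Hochberg adjustment over all 14108 genes per comparison. Called means an adjusted p under 0.05. An "at least" fold is the mean of the brighter group against, per dim array, the higher of the lowest signal well above background and the dim probe's own. The fit was tested on simulated data.

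Named were the up to 10 largest called changes of at least 2-fold per direction (interaction: up to 6 of at least 1 log2 unit), genes well above background in 1 genotype only, and a fixed list. Some genes that this rule takes in are not reported here. Other genes were added after their values were seen, and the members and lists were chosen with earlier results of these data known. Alternatives were normexp (offset 50, on the median spot intensity, as no mean was used), quantile normalization, other filters, the mean of probes, only the groups compared, a replicate block and each array left out.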

Additional observations from a re-analysis of the deposited data

Results flagged for a closer look

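For 17 of the named Slc genes the difference between genotypes differed between Flt3+ and Flt3- GPs by the interaction term in limma (adjusted p under 0.05). Genes named by the size of this term were taken from those called, so the count of 17 is no result in itself. The interaction was called for 27.7% of the Slc genes and for 30.9% of all genes tested. Slc36a2 was picked from earlier results of these data, and Slc25a41 was kept by the rule through Irf8KO Flt3+ GPs alone, so their values are descriptions. No explanation was weighed for any of them. More positive in Flt3+ GPs were Slc36a2 (1.90), Slc25a41 (1.23), Slc7a5 (0.80, adjusted p = 0.00342), Slc7a1 (0.78, adjusted p = 0.00864) and Slc3a2 (0.58, adjusted p = 0.00363). Smaller positive values were those of the nucleoside carrier Slc29a1 (0.35, adjusted p = 0.0296), the glutamine carrier Slc38a1 (0.34, adjusted p = 0.0317), the lactate exporter Slc16a3 (0.34, adjusted p = 0.0294) and the mitochondrial carrier Slc25a39 (0.28, adjusted p = 0.0152). These 4 lost the call in 5, 7, 6 and 3 of the 8 fits that left out 1 array, at an adjusted p of up to 0.0979, 0.0988, 0.0948 and 0.0687. More negative in Flt3+ GPs were Slc40a1 (-0.43, adjusted p = 0.00883), Slc4a1 (-0.92, adjusted p = 0.0112), Slc7a7 (-1.16, adjusted p = 0.0018) and Slc22a18 (-1.17, adjusted p = 0.00141). The 4 others were Slc18a2 (-1.20, adjusted p = 0.00119), Slc26a11 (-1.20, adjusted p = 0.00147), Slc15a2 (-1.22, adjusted p = 0.00129) and Slc35d3 (-1.75, adjusted p = 0.00324). With normexp the interactions of Slc36a2 and Slc40a1 changed sign, to -0.08 and 0.67. That of Slc40a1 was then called in the opposite direction (adjusted p = 0.00433), so its direction depends on the background correction.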

How the results depend on the processing

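Counts of called Slc genes stayed within 1.5 times in all comparisons under normexp, quantile normalization, the deposited series table, the filter on all 8 arrays, the mean of probes and the replicate block, and under a fit of only the groups compared in the 4 it applies to. With no filter on dim probes the interaction count fell from 71 to 45, with more genes to adjust over. Leaving out 1 array gave 139 to 162 genes between WT populations (159 with all), 108 to 140 between Irf8KO populations (133), 52 to 79 between genotypes in Flt3+ (83), 79 to 117 in Flt3- GPs (117), and 38 to 81 for the interaction (71).

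Signs turned with normexp for Slc22a23 (0.0163) and Slc4a11 (0.0584) between genotypes in Flt3+ GPs, Slc11a1 between WT populations (-0.25), and the interactions of Slc36a2 (-0.0792) and Slc40a1 (0.67), and with quantile normalization for Slc15a4 (0.21) and Slc38a1 (0.31) between WT populations, uncalled before. The interaction of Slc40a1 was called in both directions, as negative in the main fit and as positive with normexp. The cause of these turns was not tested. With the replicate block on the experiment number the counts were 161, 89, 113, 130 and 70, in the order WT populations, genotypes in Flt3+, genotypes in Flt3-, Irf8KO populations, interaction. The labels tie the number to 1 of 2 experiments, and same-numbered arrays of different groups had correlations of their deviations of -0.03 to 0.12. Among named genes with a test, the block ended the call of Slc7a1 between WT populations (adjusted p = 0.0515) and brought that of Slc11a2 in the interaction past the threshold (0.0435). Genes dim in a group have log2 sizes that depend on the background correction. The 2 arrays per group limit the precision.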

Other observations

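Some Slc genes were uneven within a group. Slc17a8, a vesicular glutamate carrier, was at 0.45 and -2.75 in WT Flt3+ GPs and between -3.02 and -2.35 on the other 6 arrays. Slc25a35, a mitochondrial carrier without a known cargo, was at -0.53 and -3.31 in WT Flt3+ GPs and between -3.92 and -3.31 elsewhere. Among genes well above background on both arrays of a group, 4 of 244 differed by more than 1 log2 unit between the 2 WT Flt3+ arrays, 1 of 235 between the WT Flt3- arrays, and none of 240 and 235 in the Irf8KO groups.

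Slc10a1, the bile acid carrier of liver cells, had a probe at 9.30 to 9.94 on all 8 arrays. Its second probe, at -7.34 to -6.18, passed the background flag on none. Of the 79 members with several probes, 13 had another probe that passed that flag on no array, and in 10 of these 13 the probe used was well above background on all 8. Among genes that did not pass the rule, Slc9c1 reached -0.84 on 1 array only.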
